A study of Mus musculus with 8 samples.

Results

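Fas, Fasl, Fadd, Tnfrsf1a, Casp2, Casp6, Casp8 and Casp9 encode receptors, a ligand, an adaptor and proteases that start or carry out apoptosis. They were followed in mouse cortical neurospheres that had been exposed to ethanol. Probes were taken by the gene symbol of the platform's annotation, which gave 8 probes, 1 for each gene, of 21582 on the array. Neurospheres grow in suspension from neural stem cells and their progeny, here taken from the embryonic cortex at gestational day 12.5. The exposed cultures received 320 mg/dl ethanol for 5 days in mitogenic medium and were then differentiated for 3 days without ethanol, by withdrawal of epidermal growth factor and leukaemia inhibitory factor from a medium that kept fibroblast growth factor (FGF). The control cultures were differentiated in the same way, also with FGF, and had no ethanol exposure. RNA of an exposed and a control culture was hybridised together on each of 8 two-colour arrays: the exposed RNA carried Cy5 on 4 (replicates 5 to 8) and Cy3 on 4 (replicates 1 to 4).

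Death receptors are members of the tumour necrosis factor receptor family with an intracellular death domain. When Fas is bound by its ligand Fasl, it recruits the adaptor Fadd, which in turn gathers caspase-8, an initiator protease. The tumour necrosis factor receptor Tnfrsf1a reaches Fadd and caspase-8 through a second complex, and also signals for survival. Caspase-9 is the initiator on the mitochondrial route, caspase-2 an initiator activated in its own complex, and caspase-6 an effector that cleaves nuclear lamins. Apoptosis removes many progenitors and young neurons during normal cortical development, and ethanol is known to increase it in the developing brain.

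The upstream sequences of Fas and Fadd are shown because these were the members with an unadjusted p under 0.05 in the fit described further on, with values of opposite sign. Each runs 5′ to 3′ on the gene's strand from base 250 to base 21 before the transcript start (RefSeq, GRCm38.p6). All 8 genes matched an entry of that table. Fas lies on the plus strand at chr19:34290409-34290638, and Fadd on the minus strand at chr7:144582462-144582691. Capitals mark matches, on either strand, to a GC box (GGGCGG) or an AP-1 site (TGACTCA).
Fas: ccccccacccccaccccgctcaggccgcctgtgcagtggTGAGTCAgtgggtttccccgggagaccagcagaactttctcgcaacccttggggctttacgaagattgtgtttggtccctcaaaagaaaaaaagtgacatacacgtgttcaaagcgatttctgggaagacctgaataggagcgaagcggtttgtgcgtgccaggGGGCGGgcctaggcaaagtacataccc
Fadd: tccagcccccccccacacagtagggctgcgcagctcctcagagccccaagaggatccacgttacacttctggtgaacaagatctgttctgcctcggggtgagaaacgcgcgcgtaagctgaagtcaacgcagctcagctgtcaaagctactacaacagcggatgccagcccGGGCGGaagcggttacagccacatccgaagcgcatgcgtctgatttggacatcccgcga
The Fas window held 1 AP-1 match and 1 GC box, which did not overlap, and the Fadd window held 1 GC box. Of 32851 windows of this length, 4.17% held the AP-1 letters and 29.8% the GC box. The letters CCAAT and TATAAA and the E2F letters TTTCCCGC and TTTGGCGC were also searched on both strands and had no match in either window; 32.2%, 11.8%, 0.804% and 0.374% of all windows held them. Letters in a window say nothing of whether a factor binds there.

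The deposited values are log2 ratios of the channels, with no intensities, so that they give no level of expression and the cell types of the cultures could not be checked by their markers' levels. Values of exactly 0 and each array's single highest value, which many probes share, were read as ratios that were not computed. Between 16274 and 18802 probes per array had a computed ratio (75.4% to 87.1%). Every array was centred on its median, which lay between 0.02 and 0.52 as deposited on the arrays with exposed RNA in Cy5 and between -0.44 and -0.32 on those with it in Cy3. Nothing in the sources says that the arrays came from separate cultures, so the errors describe the spread between arrays, which may be technical.

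No label states which channel was divided by which, so no value says whether a transcript was higher or lower after ethanol. Each probe was therefore described by a pair of quantities. Its shared part is the average of the means of the 2 dye orientations; if the ratios are of condition over condition, this part carries the response to ethanol. Its turning part is the mean with exposed RNA in Cy5 minus the mean with it in Cy3, divided by 2. If the ratios are of dye over dye, the response is here, and the shared part holds the dye effect of the probe. If they are of condition over condition, the turning part holds that dye effect. Which reading holds was not tested, so a value in either part may be a dye effect. Both came from a limma fit of all 15345 probes with at least 3 computed values in each orientation, with p-values adjusted over all of them (threshold 0.05).

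Of the 8 members, 4 were measured on all 8 arrays and tested: Fas, Fadd, Casp2 and Casp6. The other 4, Fasl, Tnfrsf1a, Casp8 and Casp9, had computed ratios on 3 to 5 arrays and were not tested. In the whole array 71.1% of probes were tested and 48.6% had a value on all 8 arrays. Over the members' 64 possible values, 49 were computed (76.6%, against 82.9% over all probes), 14 were exactly 0 and 1 was its array's highest value.

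None of the 4 tested members passed in the shared part, where 0% of the 15345 probes did (limma, smallest adjusted p = 0.136), nor in the turning part, where 1.56% did. Without adjustment, Fas and Fadd had p under 0.05 in the shared part, 2 of 4, where 13.9% of all probes did. No member had p under 0.05 in the turning part without adjustment, where 13.8% of all probes did. The shared parts of the 4 had a median of 0.43, against -0.06 over all probes tested, and their turning parts a median of 0.28, against 0.11. Casp6 had the largest turning part in size, at -0.85, against a median size of 0.41 over all probes tested. The turning parts of single members moved with the setting. Over the 18 other settings they ran from -0.14 to 0.65 for Fas, 0.08 to 0.55 for Fadd, 0.13 to 0.66 for Casp2 and -1.31 to -0.47 for Casp6. The highest values of Fas, Fadd and Casp2 were those without centring of the arrays, which raised the median turning part of all probes by 0.32, to 0.42.

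**Figure D1:**
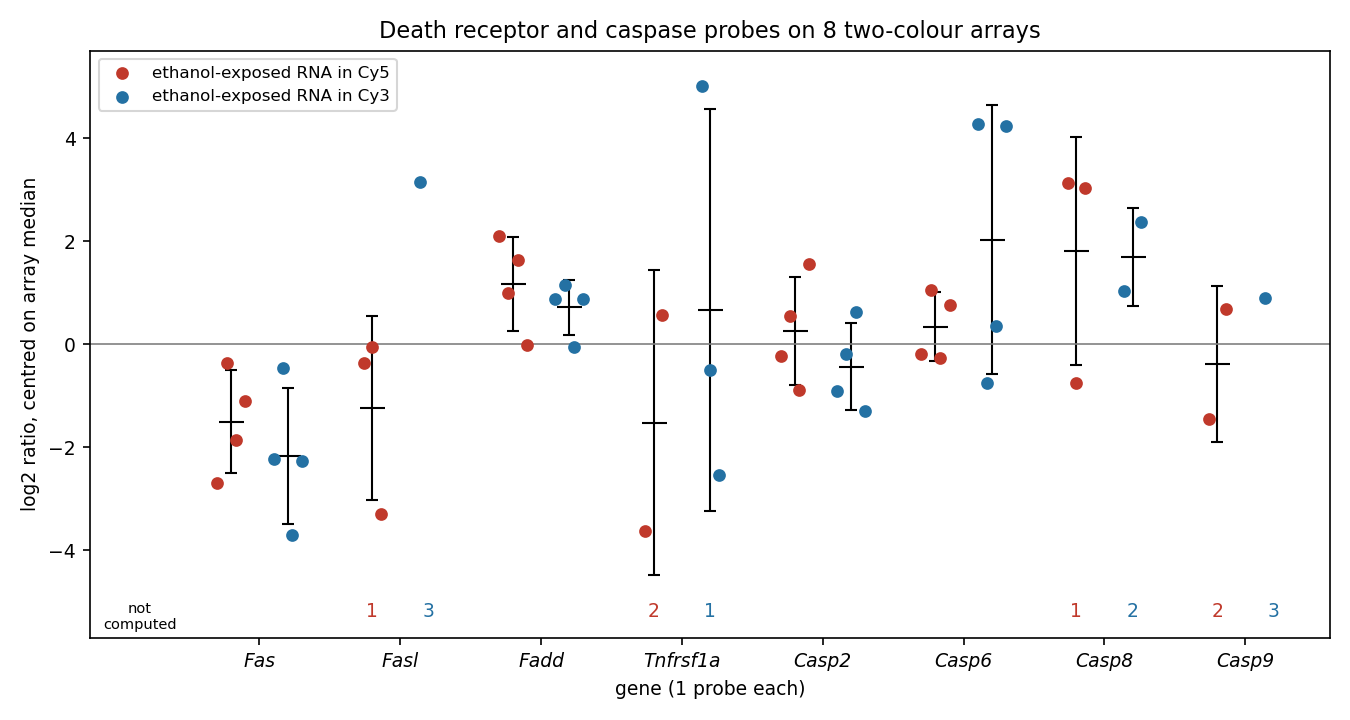
Log2 ratios of the 8 probes, centred on each array's median (vertical axis), by gene (horizontal axis). Red points are arrays with ethanol-exposed RNA in Cy5 and blue points arrays with it in Cy3, bars give the mean ± SD where at least 2 values exist, and the digits at the bottom count arrays with no computed ratio. All 8 Fas points lie below 0, between -3.71 and -0.36, while the points of the other genes lie on both sides.

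Fas, the death receptor itself, was negative on every array. With exposed RNA in Cy5 its centred log2 ratios were -2.70, -0.36, -1.86 and -1.10 on replicates 5 to 8, and with exposed RNA in Cy3 they were -2.24, -0.47, -3.71 and -2.27 on replicates 1 to 4. The orientations overlapped, with the value nearest 0 on replicate 6 and the lowest on replicate 3. Their means were -1.50 ± 1.01 for Cy5 and -2.17 ± 1.33 for Cy3 (SD, n = 4 each). The shared part was -1.84 ± 0.41 (SE, n = 8; 95% interval -2.75 to -0.92), a 3.57-fold departure from the array median, and did not pass (limma, adjusted p = 0.169). Only 1.60% of tested probes had a lower shared part, and 1.75% of the probes with 8 values were negative on all 8 arrays. The turning part was 0.33 ± 0.41 (95% interval -0.58 to 1.25; adjusted p = 0.775). In RNA of whole cultures a change in the number of cells that carry a transcript and a change of its amount per cell cannot be told apart.

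Fasl, the ligand of Fas, had a computed ratio on 4 arrays. It read -0.36, -0.05 and -3.30 on replicates 6, 7 and 8, with exposed RNA in Cy5, and 3.16 on replicate 2, the only array with it in Cy3. The other 4 arrays listed it at exactly 0. Its values spanned 6.45 on the log2 scale, with 3 negative and 1 positive. It entered the fit only with exact zeros kept as values. There the shared part was -0.04 ± 0.47 and the turning part -0.78 ± 0.47 (limma, adjusted p 0.980 and 0.478), values that rest in part on those zeros.

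Fadd, the adaptor that links the receptor to caspase-8, lay above the array median on 6 of 8 arrays. Its centred log2 ratios were 2.10, 0.99, 1.63 and -0.02 on replicates 5 to 8, with exposed RNA in Cy5, and 0.88, 1.15, -0.05 and 0.87 on replicates 1 to 4, with it in Cy3. The values of the orientations overlapped, and the 2 negative values, on replicates 8 and 3, were within 0.05 of 0. The shared part was 0.95 ± 0.33 (SE, n = 8; 95% interval 0.22 to 1.67), or 1.93-fold, and did not pass (limma, adjusted p = 0.262). Among tested probes 94.4% had a lower shared part. The turning part was 0.23 ± 0.33 (adjusted p = 0.809). Fadd was the member with the smallest spread, with a residual SD of 0.746 against a median of 1.25 over all probes tested. Fas and Fadd thus had shared parts of opposite sign, and this held under all 18 other settings tried.

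Tnfrsf1a, a receptor of tumour necrosis factor, had the widest range of the members, 8.63 on the log2 scale over 5 arrays. It read -3.62 and 0.57 on replicates 6 and 7, with exposed RNA in Cy5, and 5.01, -0.50 and -2.53 on replicates 2, 3 and 4, with it in Cy3. Each orientation had values on both sides of 0. With probes admitted from 2 values per orientation, its shared part was -0.43 ± 1.15 (n = 5; limma, adjusted p = 0.901), and with exact zeros kept it was -0.26 ± 0.75 (n = 8; adjusted p = 0.917). In the same order its turning part was -1.09 ± 1.15 and -0.53 ± 0.75 (limma, adjusted p 0.755 and 0.775).

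**Figure D2:**
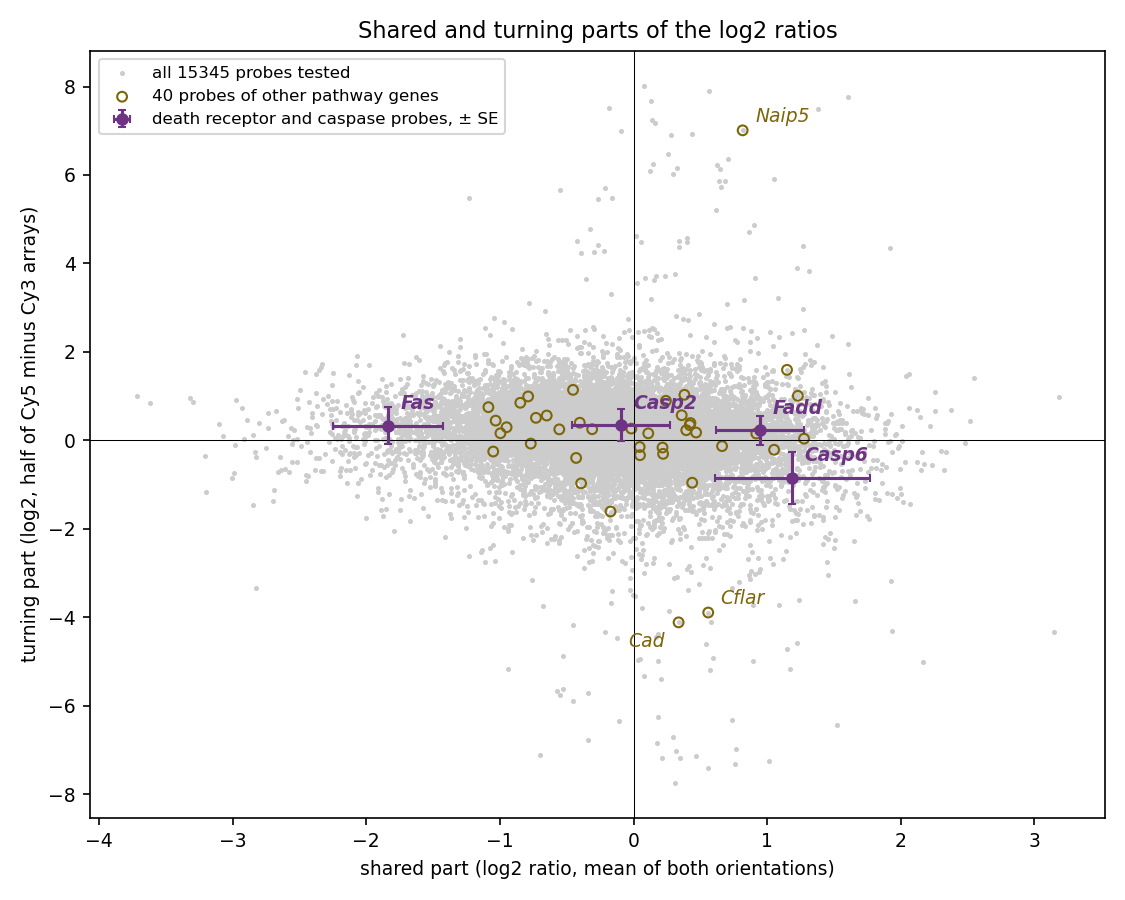
Shared part (horizontal axis, log2) and turning part (vertical axis, log2) of all 15345 probes tested (grey), of 40 probes of other genes of the pathway (open circles) and of the 4 tested members (purple, ± SE). Fas lies at the low end of the shared part at -1.84 and Casp6 and Fadd on the positive side, all 4 members have turning parts between -0.85 and 0.34, and the other pathway genes Naip5, Cad and Cflar lie at 7.01, -4.11 and -3.89 in the turning part.

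Among the caspases, Casp8, the initiator of the receptor route, had 5 computed ratios, 4 of them positive. It read 3.14, -0.75 and 3.04 on replicates 5, 6 and 7, with exposed RNA in Cy5, and 1.03 and 2.37 on replicates 1 and 4, with it in Cy3. It was exactly 0 on replicates 2 and 8, and on replicate 3 it held that array's highest value, which was read as a ratio not computed. With probes admitted from 2 values per orientation, the shared part was 1.76 ± 0.70 (n = 5; limma, adjusted p = 0.384). With the highest value kept as a measurement it was 4.31 ± 2.11 (n = 6; adjusted p = 0.441), and with zeros kept 1.19 ± 0.57 (n = 7; adjusted p = 0.475). In the same order the turning part was 0.06 ± 0.70, -2.52 ± 2.11 and 0.22 ± 0.57 (limma, adjusted p 0.984, 0.674 and 0.889).

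Casp2, an initiator caspase of its own complex, varied around the array median. Its values were -0.23, 0.55, -0.88 and 1.56 on replicates 5 to 8, with exposed RNA in Cy5, and -0.90, -0.19, 0.63 and -1.29 on replicates 1 to 4, with it in Cy3. Positive and negative values occurred in both orientations. The shared part was -0.09 ± 0.36 (SE, n = 8; 95% interval -0.91 to 0.72; limma, adjusted p = 0.927) and the turning part 0.34 ± 0.36 (95% interval -0.47 to 1.16; adjusted p = 0.741). The sign of the shared part turned when replicate 4 or replicate 7 was left out (0.048 and 0.095).

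Casp6, the effector that cleaves lamins, had a positive mean that rested on 2 arrays. With exposed RNA in Cy5 it read -0.19, 1.06, -0.27 and 0.77 on replicates 5 to 8. With exposed RNA in Cy3 it read 4.28, -0.75, 0.35 and 4.25 on replicates 1 to 4, so that replicates 1 and 4 stood above all other arrays. The means were 0.34 ± 0.67 for Cy5 and 2.03 ± 2.62 for Cy3 (SD, n = 4 each), so that the spread within the Cy3 arrays exceeded the distance between the means. The shared part was 1.19 ± 0.58 (95% interval -0.11 to 2.48; limma, adjusted p = 0.393) and the turning part -0.85 ± 0.58 (95% interval -2.14 to 0.45; adjusted p = 0.578). Without single arrays the shared part ran from 0.81 (without replicate 1) to 1.65 (without replicate 2), and the turning part from -1.31 (without replicate 2) to -0.47 (without replicate 1). Its residual SD of 1.91 was above that of 83.6% of tested probes.

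Casp9, the initiator of the mitochondrial route, was computed on 3 arrays and listed at exactly 0 on the other 5. It read -1.45 and 0.69 on replicates 6 and 7, with exposed RNA in Cy5, and 0.89 on replicate 2, with it in Cy3. With exact zeros kept as values the shared part was -0.02 ± 0.30 and the turning part -0.19 ± 0.30 (limma, adjusted p 0.985 and 0.803). Both values rest mostly on those zeros.

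Ordered by shared part, the tested members ran from Fas at -1.84 through Casp2 at -0.09 and Fadd at 0.95 to Casp6 at 1.19. Fadd and Casp6 differed by less than the SE of either. Whether Fas and Fadd differed was not tested. Between pairs of the 4 genes the Pearson correlation over the 8 arrays ran from -0.58 for Fadd and Casp2 to 0.22 for Fas and Casp2, and was 0.09 for Fas and Fadd. These correlations describe 8 points that share arrays and dye orientation.

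The probes most like each member over the 8 centred arrays were looked up among 8679 probes of other named genes with 8 values. For Fas they were the sodium channel gene Scn10a (r = 0.93) and the integrin gene Itgb6 (r = 0.92), with shared parts of -1.30 and -0.78. For Fadd they were the clone-named 9130401M01Rik and the DNA repair helicase gene Ercc2 (r = 0.93 each). For Casp2 they were the cell cycle kinase gene Cdk2 and the tRNA thiolation gene Ctu2 (r = 0.98 each). Cdk2 followed Casp2 from array to array but lay above the median, with a shared part of 1.34 against -0.09 for Casp2. For Casp6 they were the anion exchanger gene Slc4a3 (r = 0.97) and Wdr6 (r = 0.95). As each is the highest of 8679 correlations over 8 points, these values are a description only.

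Of 55 other genes of the pathway, 50 were on the array and 39, with 40 probes, were tested. None of the 40 passed in the shared part, and 3 passed in the turning part, 1 positive and 2 negative; over all probes 0.769% passed on the positive and 0.789% on the negative side. Without adjustment 6 of the 40 had p under 0.05 in the shared part and 8 in the turning part, where 13.9% and 13.8% of all probes did. The median was 0.08 in the shared part and 0.24 in the turning part, against -0.06 and 0.11 over all probes tested.

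**Figure D3:**
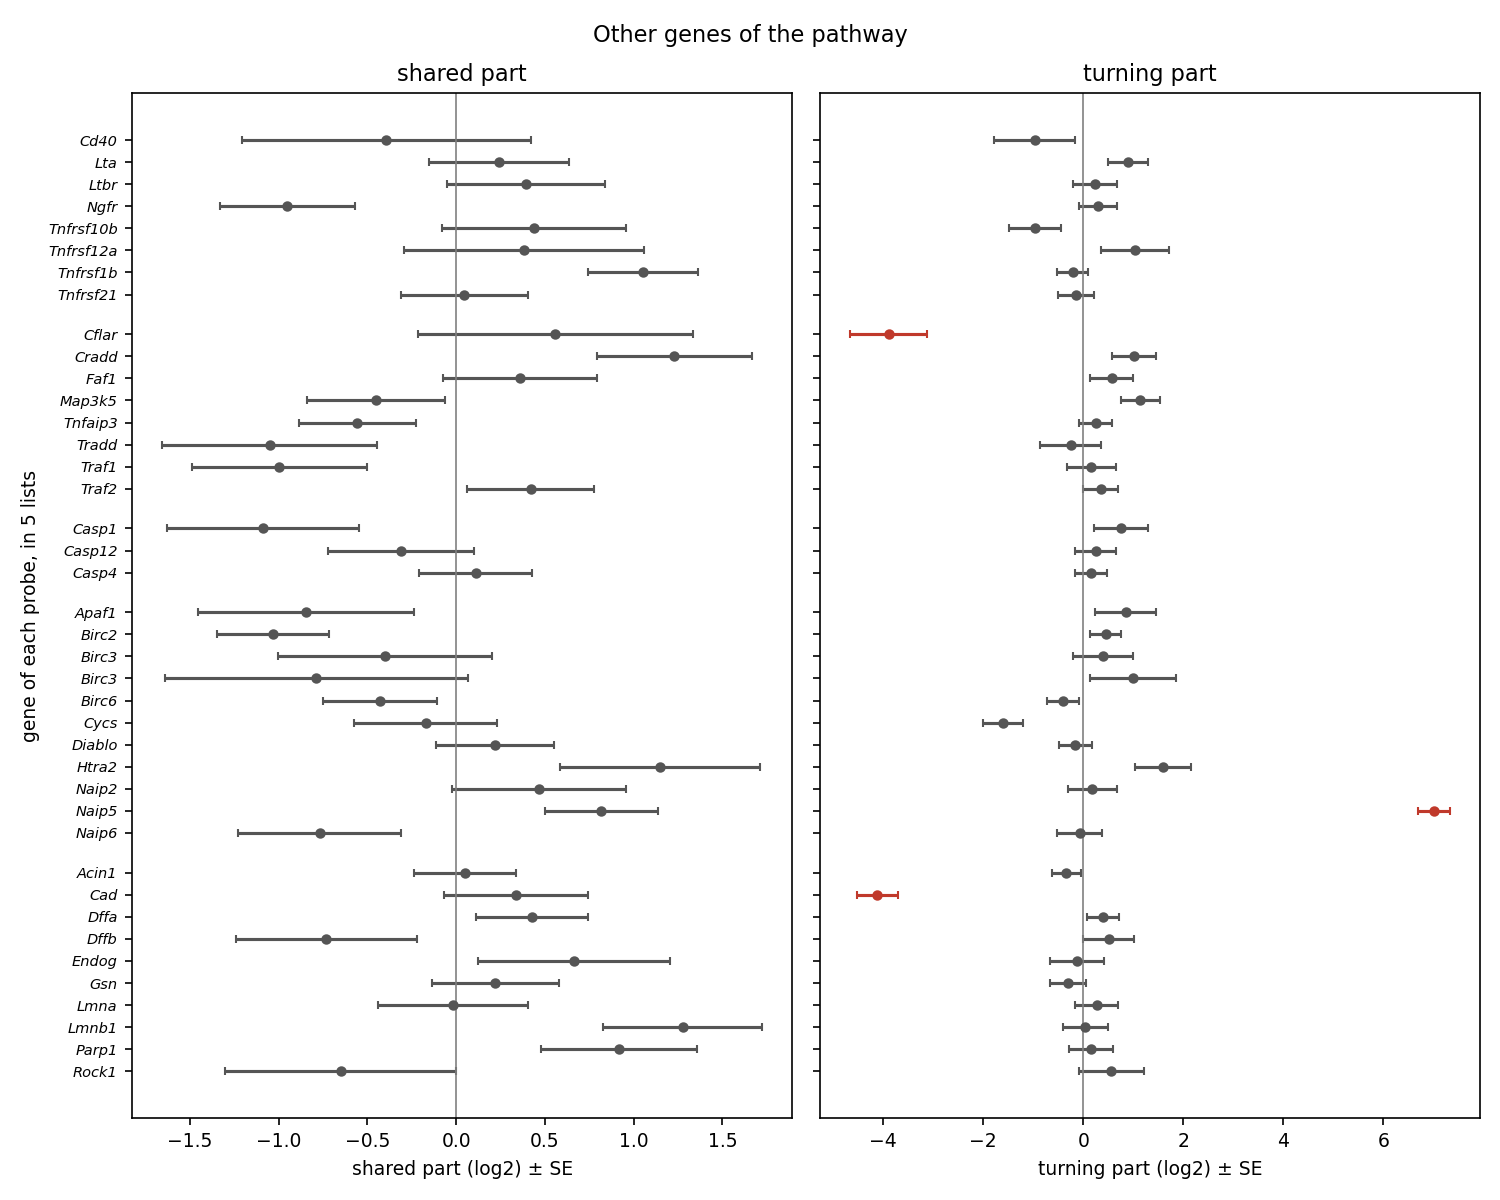
Shared part (left) and turning part (right) on the log2 scale, ± SE, of the 40 tested probes of other pathway genes, in 5 groups from top to bottom: receptors and ligands, adaptors and regulators, caspases, apoptosome and caspase inhibitors, substrates and nucleases. Red marks the 3 probes that passed, Cflar at -3.89, Naip5 at 7.01 and Cad at -4.11, all in the turning part.

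Receptors and ligands had 8 tested probes, none of which passed, with a median of 0.31 in the shared part and 0.04 in the turning part. Tnfrsf1b, the second receptor of tumour necrosis factor, read 1.05 ± 0.31 in the shared part (SE, n = 8; limma, adjusted p = 0.231) and was positive on 7 arrays, with -0.07 on replicate 2. Ngfr, the low-affinity neurotrophin receptor, read -0.95 ± 0.38 (adjusted p = 0.316). The lymphotoxin gene Lta read 0.89 ± 0.40 and the TRAIL receptor gene Tnfrsf10b -0.96 ± 0.52 in the turning part (adjusted p 0.353 and 0.468). The genes of tumour necrosis factor and TRAIL, Tnf and Tnfsf10, had too few computed ratios to test.

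Adaptors and regulators of the receptor complex had 8 tested probes with medians of -0.05 in the shared and 0.30 in the turning part. Cflar, which encodes the caspase-8-like inhibitor c-FLIP, passed in the turning part at -3.89 ± 0.78 (SE, n = 8; limma, adjusted p = 0.0376). It read 0.64, -3.61, -4.81 and -5.55 on replicates 5 to 8, with exposed RNA in Cy5, and 7.18, 1.06, 5.56 and 3.99 on replicates 1 to 4, with it in Cy3. The orientations did not overlap, as was so for 10.9% of all probes tested, and replicate 5 lay nearest to the other side. The call ended when any of replicates 1, 3, 4, 6, 7 or 8 was left out (adjusted p up to 0.125). Cradd, an adaptor of caspase-2, read 1.23 ± 0.44 in the shared part (adjusted p = 0.267) and 1.01 ± 0.44 in the turning part (adjusted p = 0.340). Traf1, a signal adaptor of the receptor family, read -0.996 ± 0.492 in the shared part, and the stress kinase gene Map3k5 read 1.14 ± 0.39 in the turning part (adjusted p 0.397 and 0.220).

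Of the other caspases 3 were tested, and none passed. The inflammatory caspase gene Casp1 read -1.09 ± 0.54 in the shared and 0.75 ± 0.54 in the turning part (SE, n = 8; limma, adjusted p 0.399 and 0.599). Casp12 read -0.31 ± 0.41 and 0.25 ± 0.41 (adjusted p 0.762 and 0.836).

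Genes of the apoptosome and of caspase inhibitors had 11 tested probes with medians of -0.40 in the shared and 0.40 in the turning part. Naip5, an inhibitor of apoptosis family member that senses bacterial flagellin, passed in the turning part at 7.01 ± 0.32 (SE, n = 8; limma, adjusted p = 3.35e-06). It read 8.28, 7.23, 8.93 and 6.86 on replicates 5 to 8, with exposed RNA in Cy5, and -6.41, -6.07, -5.92 and -6.37 on replicates 1 to 4, with it in Cy3. Its relatives Naip2 and Naip6, which are close in sequence and may share hybridisation, read 0.18 ± 0.49 and -0.07 ± 0.46 and did not pass (adjusted p 0.912 and 0.967). Cycs, the cytochrome c gene, read -1.61 ± 0.40 in the turning part (adjusted p = 0.0923), and Birc2, a ubiquitin ligase of the receptor complex, -1.03 ± 0.32 in the shared part (adjusted p = 0.232). Apaf1, the scaffold on which caspase-9 is activated, read -0.85 ± 0.61 and 0.85 ± 0.61 in the shared and turning parts (adjusted p 0.548 and 0.596).

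Caspase substrates and nucleases had 10 tested probes with medians of 0.28 in the shared and 0.10 in the turning part. Cad, the enzyme of pyrimidine synthesis that caspases cleave, passed in the turning part at -4.11 ± 0.41 (SE, n = 8; limma, adjusted p = 0.000298). Without the 3 r arrays (replicates 3, 4 and 8) it read -3.66 and did not pass (adjusted p = 0.0536). It read -2.92, -5.20, -2.32 and -4.66 on replicates 5 to 8, with exposed RNA in Cy5, and 3.78, 3.89, 4.46 and 5.68 on replicates 1 to 4, with it in Cy3. The lamin genes that encode substrates of caspase-6 read 1.28 ± 0.45 for Lmnb1 and -0.02 ± 0.42 for Lmna in the shared part (adjusted p 0.263 and 0.990). Parp1, a DNA repair enzyme cleaved in apoptosis, read 0.92 ± 0.44 in the shared part (adjusted p = 0.382). Dffa, the inhibitor of the nuclease that cuts DNA in dying cells, read 0.39 ± 0.32 in the turning part (adjusted p = 0.653).

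Markers of cell types that the cultures could hold were set beside these values. No marker passed in either part. In the shared part the medians were 0.53 for 11 neural progenitor probes, -0.56 for 6 neuronal, -0.81 for 9 astrocyte, 0.16 for 7 oligodendrocyte lineage, -0.19 for 6 microglia and macrophage and -0.75 for 2 lymphocyte probes. In the turning part they were -0.04, 0.41, -0.29, 0.15, 0.57 and -0.18, in the same order. Lymphocytes and macrophages are cells in which Fas and Fasl are well known. Their medians per array ran from -0.13 to 0.92 for microglia and macrophages with exposed RNA in Cy5 and from -1.45 to -0.26 with it in Cy3, and for lymphocytes from -2.62 to 0.16 with exposed RNA in Cy5 and from -1.96 to 1.14 with it in Cy3. Of the 8 lymphocyte marker genes on the array only 2 had enough computed ratios to be tested. Ratios give no level, so whether such cells were present cannot be read from them, and their part in the values of Fas was not tested.

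**Figure D4:**
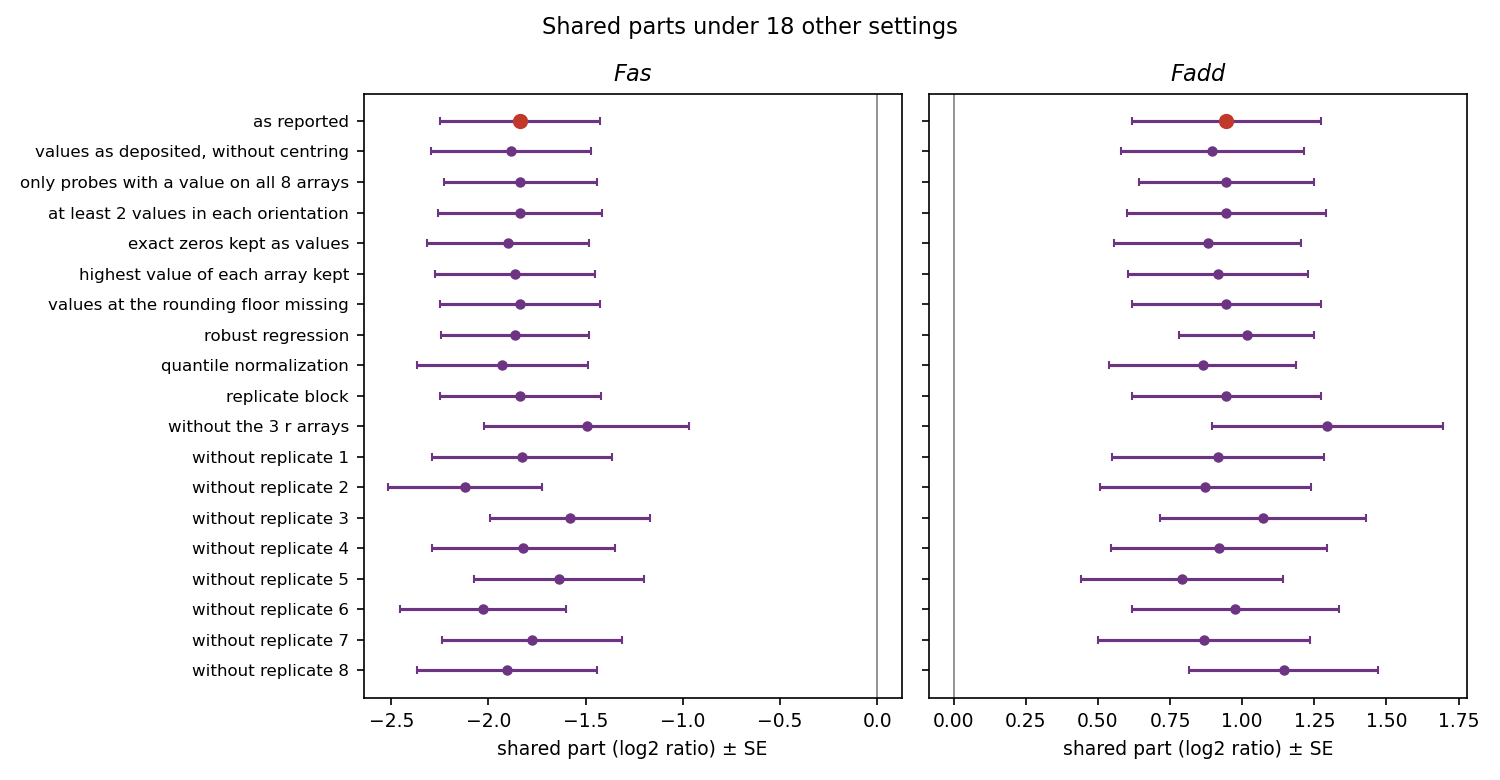
Shared part (log2, ± SE) of Fas (left) and Fadd (right) as reported (red) and under 18 other settings, one per line. Fas stays between -2.12 and -1.49 and Fadd between 0.79 and 1.29, on their own side of 0 throughout, and none of the points passed the adjusted threshold.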

How the data were processed

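The authors deposited log2 ratios, 1 per probe and array; no label or header gives the background correction, normalization or direction of these log2 values. To check the scale, a constant was subtracted from each array's log2 values (-0.22 to 0.87). By definition it set the highest value to a ratio of 100000. On each array, ratios under 0.1 then equalled a number rounded to 3 decimals (100% within 0.0011 on the log2 scale). Exact zeros and that highest value were set to missing, and arrays were centred on their medians. Log2 ratios were fitted with limma 3.58.1 (lmFit, eBayes) in R 4.3.3, with Benjamini-Hochberg adjustment over all 15345 probes. The code was also run on simulated independent noise with added shifts. That run checked the code only and says nothing of dye effects or shared cultures in these data. SEs and intervals are those of the moderated fit. The precision is limited by the number of arrays. Current symbols of list genes came from a GRCm38.p6 table, matched on Entrez number (15957 of 16635 singly named probes matched).

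The members and lists were chosen with earlier results of these data known. Named list genes are those past the threshold and, per list and part, the 2 with the smallest p; Tnf, Tnfsf10, Naip2, Naip6, Apaf1 and Lmna were named besides. Arrays of the same code number in the 2 orientations did not deviate together (correlations 0.02, -0.04 and 0.04).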

Additional observations from a re-analysis of the deposited data

How the results depend on the processing

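No member passed in either part under any of 18 alternatives. The shared part of Fas stayed between -2.12 and -1.49 (limma, adjusted p 0.0575 to 0.409) and that of Fadd between 0.79 and 1.29 (adjusted p 0.0684 to 0.448). The lowest adjusted p of both came from robust regression, under which 208 probes passed in the shared part, against 0 in the reported fit and 1 with the arrays' highest values kept. In the turning part 239 probes passed, 79 without the 3 r arrays (replicates 3, 4 and 8), 417 as deposited, 751 with robust regression and 144 to 192 without single arrays. The sign of the Fas turning part reversed without the r arrays, at -0.14, and that of the Casp2 shared part when single arrays were left out, with a range of -0.31 to 0.095. The causes were not tested. Of the other pathway probes 3 passed in the reported fit, all in the turning part. Counted over both parts together, 4 passed with robust regression or from 2 values per orientation, and 2 to 3 without single arrays. Without the r arrays 1 passed, Naip5, while in the turning part Cad read -3.66 (limma, adjusted p = 0.0536) and Cflar -3.36 (adjusted p = 0.415). Cflar also missed the threshold with zeros kept (0.0571) and with highest values kept (0.0815). With the array code number as a replicate block, Fas read -1.84 and Fadd 0.94 in the shared part, no call of a member or pathway probe was gained or lost in number, and 243 probes passed in the turning part. Computed ratios on only 3 to 5 arrays limit what Fasl, Tnfrsf1a, Casp8 and Casp9 can show.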
